A study of Mus musculus with 17 samples.

Results

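The genes described here encode the Wnt ligands, their Frizzled and LRP receptors, the R-spondins and Lgr receptors that amplify the signal, the secreted Sfrp and Dkk antagonists, Axin, beta-catenin and the TCF/LEF factors. They were found by the gene name of each array probe: Wnt, Fzd, Sfrp, Dkk, Axin and Rspo followed by a number, Lgr4, Lgr5, Lgr6, Lrp5, Lrp6, Lef1, Tcf7, Tcf7l1, Tcf7l2 and Ctnnb1. In all, 81 probes of 53 genes matched, and 77 probes of 52 genes were well above background in at least 1 channel on 2 or more arrays, of 36785 such probes on the array and 26458 genes. Wnt3a dropped out, because its only probe passed on 1 array, and Lgr4, Rspo2 and Wnt3 each lost 1 of several probes.

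The study followed the cells made by progenitors of the dorsal and of the lateral wall of the subventricular zone (SVZ), the germinal layer that lines the lateral ventricle and supplies the olfactory bulb with neurons after birth. CD1 mice, labelled as postnatal day 1 (P1), were electroporated in vivo towards either wall, and GFP-positive cells were sorted by flow cytometry 8 hours or 1, 2, 4, 7 or 14 days later. Each of the 17 two-colour arrays held dorsal cDNA in the Cy3 channel and lateral cDNA in the Cy5 channel, all labelled as biological replicates. There were 2 arrays for 8 hours and 2 for 2 days, 3 each for 1, 4 and 7 days, and 4 for 14 days. All groups were GFP-positive cells amplified by a global PCR, with no untreated group and no array with the dyes exchanged, so a dye effect of a probe and a wall difference cannot be told apart. The labels call the RNA of the dorsal channel polyA RNA and that of the lateral channel total RNA on all 17 arrays, while their protocol describes 1 mRNA isolation, so a difference of RNA type, if there was one, and a wall difference cannot be told apart. The labels do not say how many animals entered a sample. In bulk samples such as these, fewer cells of a type and less RNA per cell cannot be told apart.

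Wnt ligands are secreted lipid-modified proteins that bind a Frizzled receptor and its LRP5 or LRP6 co-receptor at the cell surface. Binding stops the Axin complex from marking beta-catenin for destruction, and beta-catenin then enters the nucleus and activates genes together with TCF/LEF factors, while R-spondins bound to Lgr receptors keep Frizzled receptors on the membrane and Sfrp and Dkk proteins hold the signal down. Some ligands, Wnt5a among them, act mainly through pathways without beta-catenin. In the postnatal SVZ, Wnt signalling is best known for its activity in dorsal progenitors.

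TCF/LEF proteins bind short DNA sequences that were searched for here on both strands as CTTTGAA or CTTTGAT, and as CTTTGTA or CTTTGTT, with overlapping matches allowed. RefSeq promoters (GRCm38.p6) were matched by symbol for 34 of the 52 genes, and the 250 bases before the start held a match in 6 of their 43 promoters (14%) and in 4874 of 32851 promoters in all (14.8%). The promoters with a match belonged to Fzd7, Lef1, Wnt5b, Wnt11, Dkk1 and Tcf7l2. Of the 10 genes that passed a test below, 5 had a promoter in the table. The sequences of the 4 that passed a test over time are given 5′ to 3′, so that the promoters of genes with a time course can be seen beside their values. They are those of Fzd1 (chr5:4758217-4758466, minus strand), Tcf7l1 (chr6:72789046-72789295, minus strand), a downstream start of Tcf7l2 (chr19:55895071-55895320, plus strand) and Axin2 (chr11:108920099-108920348, plus strand). Capitals mark a match.
Fzd1: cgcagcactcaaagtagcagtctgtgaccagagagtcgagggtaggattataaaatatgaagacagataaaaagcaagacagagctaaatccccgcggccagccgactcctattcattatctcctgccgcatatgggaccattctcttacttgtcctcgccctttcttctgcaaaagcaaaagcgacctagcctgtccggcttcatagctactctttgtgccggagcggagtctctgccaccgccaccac
Tcf7l1: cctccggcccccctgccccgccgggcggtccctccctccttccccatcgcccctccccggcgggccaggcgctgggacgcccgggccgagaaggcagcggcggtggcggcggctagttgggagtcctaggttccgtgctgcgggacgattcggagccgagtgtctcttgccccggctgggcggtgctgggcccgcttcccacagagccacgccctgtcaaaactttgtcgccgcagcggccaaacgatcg
Tcf7l2: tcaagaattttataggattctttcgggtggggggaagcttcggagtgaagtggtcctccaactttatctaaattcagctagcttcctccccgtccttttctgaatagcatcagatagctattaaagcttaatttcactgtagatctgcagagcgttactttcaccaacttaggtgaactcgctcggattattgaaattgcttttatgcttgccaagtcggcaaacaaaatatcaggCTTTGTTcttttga
Axin2: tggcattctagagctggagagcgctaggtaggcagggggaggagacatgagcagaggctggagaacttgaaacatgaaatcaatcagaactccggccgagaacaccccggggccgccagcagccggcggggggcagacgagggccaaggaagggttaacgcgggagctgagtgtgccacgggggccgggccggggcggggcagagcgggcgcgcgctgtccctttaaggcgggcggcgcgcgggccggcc
The match in this downstream Tcf7l2 promoter begins 14 bases before its start. The upstream Tcf7l2 promoter (chr19:55741560-55741809, plus strand), which is not printed, holds no match. The windows of Fzd1, Tcf7l1 and Axin2 hold none of the 4 motifs. The GC content was 51.2% in the Fzd1 window, 73.6% for Tcf7l1, 40.8% for the printed Tcf7l2 window and 69.2% for Axin2. A match describes these letters only and is not evidence of binding.

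The dorsal channel had 41.0% to 76.7% of all probes well above background per array, and the lateral channel 56.4% to 79.4%. Of the 52 genes, 24 to 47 were above background in the dorsal channel and 36 to 50 in the lateral channel, with the lowest count, 24, on 14 days replicate 2. That array and 1 day replicate 1 stood apart, with median correlations with the other arrays of 0.77 and 0.69 over all genes. All 1 day arrays shared a slide, as did all 14 days arrays, so slide and time cannot be told apart at those times. The other 3 slides each held both early (8 hours, 1 day, 2 days) and late (4, 7 and 14 days) arrays. The small number of arrays limits the precision of every value. Levels are normalised log2 intensities, differences are log2 differences, and the error given with a difference is its standard error from the limma fit. A gene is said to have risen, fallen or differed where its Benjamini-Hochberg adjusted p over all genes was under 0.05.

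The first question of the design is whether the dorsal and lateral lineages differ. No gene of the 52 differed between the walls in the mean of the 6 times, against 2.38% of all 26414 genes tested, and 10 of the 52 had an unadjusted p under 0.05, as did 16.3% of all genes. The median difference of the 52 genes was 0.25, dorsal minus lateral, beside 0.02 over all genes. Cell type markers lay the same way in this comparison: of 8 radial glia and stem cell markers, 3 (Slc1a3, Fabp7 and Gfap) were higher dorsally, with a list median of 0.88, and of 5 astrocyte markers 2 (Aldoc and Mlc1), with a median of 1.40. Hbb-bt, a red blood cell gene, was 3.70 ± 0.51 higher dorsally, while Dlx2 and Sox11, of the transit amplifying and neuroblast lists, were lower dorsally. Outlier-flagged spots left Hbb-bt, Fabp7, Slc1a3, Aldoc, Mlc1 and Sox11 fewer arrays at 14 days. The errors of the wall differences of Hbb-bt and Fabp7 there were 1.76 and 0.88, beside 1.01 and 0.51 at 4 days. Those of Slc1a3 and Aldoc were 0.55 and 0.73, beside 0.45 and 0.59 at 4 days. Mlc1 and Sox11 had errors of 0.33 and 0.27 at both times. The part of the markers' cell types in the wall differences of the 52 genes was not tested. The receptors had a median of 0.41 with 10 of 12 above 0, the secreted antagonists 0.39 with 6 of 8, the R-spondins and Lgr receptors 0.31 with 6 of 7, and the ligands 0.09 with 12 of 18. Axin1, Axin2 and Ctnnb1 had a median of -0.10, and the TCF/LEF factors 0.10.

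**Figure D1:**
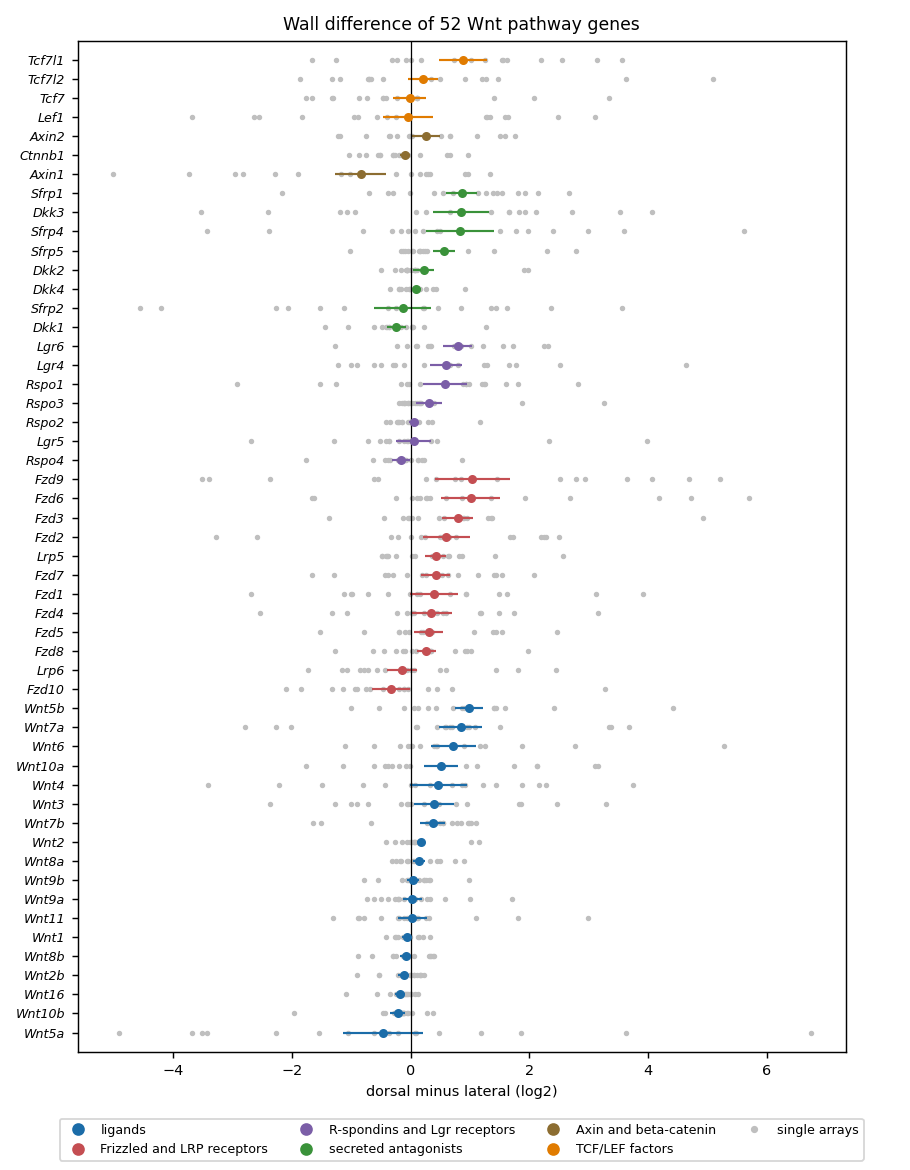
Dorsal minus lateral log2 difference of the 52 genes, grouped by role: coloured points and bars are the mean of the 6 times with its standard error, and grey points are the 17 single arrays. Most means of receptors and antagonists lie right of 0, and the single arrays of a gene usually fall on both sides of it.

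The largest of these differences in each role class are given here as values. Wnt5b, a ligand, was 0.98 ± 0.24 higher in the dorsal channel (adjusted p = 0.0529), with dorsal above lateral on 14 of 17 arrays. On the early arrays its difference ranged from 0.89 to 4.41, and on the late arrays from -1.01 to 1.58, so the early arrays all lay above 0 and the late ones on both sides of it. The change of that difference with time, -1.58 ± 0.48, did not pass the test (adjusted p = 0.236). A second Wnt5b probe gave a mean wall difference of 0.35. The receptor Fzd9 differed by 1.04 ± 0.63 (adjusted p = 0.449), with single arrays from -3.51 to 5.21. Lgr6, a receptor for R-spondins, differed by 0.79 ± 0.24 (adjusted p = 0.107) and was higher in the dorsal channel on 14 of 17 arrays, but its second probe had the opposite sign at -0.41. Sfrp1, which binds Wnt ligands outside the cell, differed by 0.86 ± 0.26 (adjusted p = 0.116) and was higher in the dorsal channel on 12 of 17 arrays. The scaffold Axin1 lay the other way at -0.84 ± 0.43 (adjusted p = 0.354), and the repressive factor Tcf7l1 at 0.88 ± 0.40 (adjusted p = 0.298). The count of 0 was sensitive to single arrays: without 1 day replicate 1, 5 genes passed, among them Lgr6 (0.98, adjusted p = 0.00284), Sfrp1 (1.01, adjusted p = 0.0304) and Wnt5b (1.05, adjusted p = 0.0348). Without 1 day replicate 2, 1 day replicate 3 or 14 days replicate 1, 1 gene passed, and without both arrays that stand apart 5 passed, all higher in the dorsal channel. Shares over all genes in these fits are not given here, so the counts describe the fits only.

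At single times, Wnt2 at 8 hours was the only gene of the 52 past the threshold, against 0.378% of all genes. It was well above background on 3 arrays in all, 2 of them the dorsal channel of 8 hours, so it met the filter through the group in which it was high, and its p gives no support to a difference. This ligand measured 7.08 and 6.95 in the dorsal channel and 5.93 and 5.94 in the lateral channel of the 2 arrays. It was well above background on both arrays in the dorsal channel and on neither in the lateral channel, so its value of 1.08 ± 0.19 (adjusted p = 0.0276), at least 2.12-fold higher dorsally, is a bound and a description of these 2 arrays. The stricter filter of 9 arrays leaves Wnt2 out. From 1 day on, its differences lay between -0.42 and 0.16. The call was lost without either 8 hours array (adjusted p up to 0.363) and without 4 days replicate 3. No gene of the 52 passed at the other times. At 1 day 1.1% of all genes passed, and 8 of the 52 had an unadjusted p under 0.05, as did 16.1% of all genes. At 2 days 0.181% of all genes passed, and 4 of the 52 and 7.87% of all genes had such an unadjusted p. The next 3 times had 3 of the 52 each at that unadjusted p, beside 5.47% of all genes at 4 days, 5.15% at 7 days and 10.3% at 14 days. Adjusted, 0% of all genes (4 days), 0.0265% (7 days) and 0.0227% (14 days) passed. Nor did the change of the wall difference with time pass for any of the 52 (0.299% of all genes), where 9 of them and 11.6% of all genes had an unadjusted p under 0.05.

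Tcf7l2 had the lowest adjusted p of the group at 14 days. This TCF factor, which acts in oligodendrocyte maturation and in canonical Wnt signalling elsewhere, measured 14.35, 14.93, 13.49 and 12.61 in the dorsal channel and 10.73, 9.83, 12.22 and 11.13 in the lateral channel of the 4 arrays. The walls did not overlap, and the difference of 2.86 ± 0.50 did not pass the test (adjusted p = 0.0993). It passed without 14 days replicate 3 (3.40, adjusted p = 0.0303) or replicate 4 (3.33, adjusted p = 0.0318), and with median centring of the ratios it passed at a smaller size (1.71, adjusted p = 0.0197). This probe lies at chr19:56007586-56007645 (mm9, plus strand). Another Tcf7l2 probe, at chr19:55982975-55983034 and above background on 17 arrays, gave wall differences of 0.04, 0.26, -0.09 and 0.70 on the same arrays, and the mean over probes was 1.33 (adjusted p = 0.168). Markers of the oligodendrocyte lineage varied alongside: Mbp was higher in the dorsal channel on 4 of 4 arrays, by 2.39, 0.17, 0.95 and 2.73. Olig2 was higher by 4.03, 2.27 and 1.78 on replicates 1, 3 and 4 and lower on replicate 2, at -2.33. None of the 5 oligodendrocyte markers differed between the walls at 14 days, and their part in the Tcf7l2 values was not tested.

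The design is also a time course, and here some genes of the group did move. The 6 time means differed for 8 of the 52 genes, Axin1, Axin2, Dkk3, Fzd1, Sfrp4, Tcf7l1, Tcf7l2 and Wnt10a, which is 15.4% of the group against 7.41% of all genes. Between early and late arrays, 4 of 52 changed in the dorsal channel (7.69%, against 4.8% of all genes) and 5 of 52 in the lateral channel (9.62%, against 5.97%), so these shares were near the background. Dorsally, Wnt10a rose and Dkk3, Fzd1 and Tcf7l1 fell, where 1.54% of all genes rose and 3.27% fell. Laterally, Sfrp4 and Wnt5a rose and Fzd1, Tcf7l1 and Tcf7l2 fell, where 3.48% rose and 2.49% fell. The median late minus early difference of the group was 0.00 dorsally and 0.13 laterally, beside 0.06 and 0.05 over all genes. In neither channel was any of the 52 genes without overlap between the 7 early and the 10 late arrays. Over all genes, 0.259% were wholly higher and 0.456% wholly lower late in the dorsal channel, and 0.877% and 0.186% in the lateral channel. Without both arrays that stand apart, 13 genes passed over the 6 times, 6 dorsally and 11 laterally. Without the 14 days arrays the counts were 13, 8 and 10. Without either 8 hours array, 5 genes passed over the 6 times and 2 dorsally, and without 8 hours replicate 1, 3 passed laterally. Without 2 days replicate 2, 2 passed dorsally. The shares over all genes in these fits are not given here, so the counts do not single out this group.

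**Figure D2:**
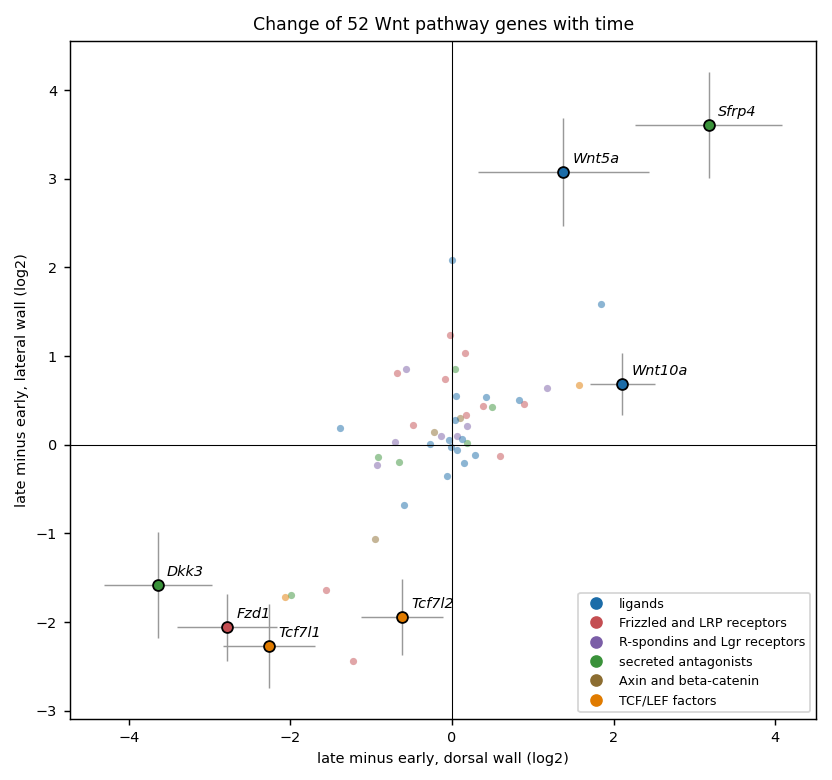
Late minus early log2 change of the 52 genes in the dorsal wall (horizontal axis) and the lateral wall (vertical axis), coloured by role. Outlined and named points changed in at least 1 wall and carry standard errors. Fzd1, Tcf7l1, Tcf7l2 and Dkk3 lie at the lower left, and Wnt5a, Wnt10a and Sfrp4 at the upper right.

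**Figure D3:**
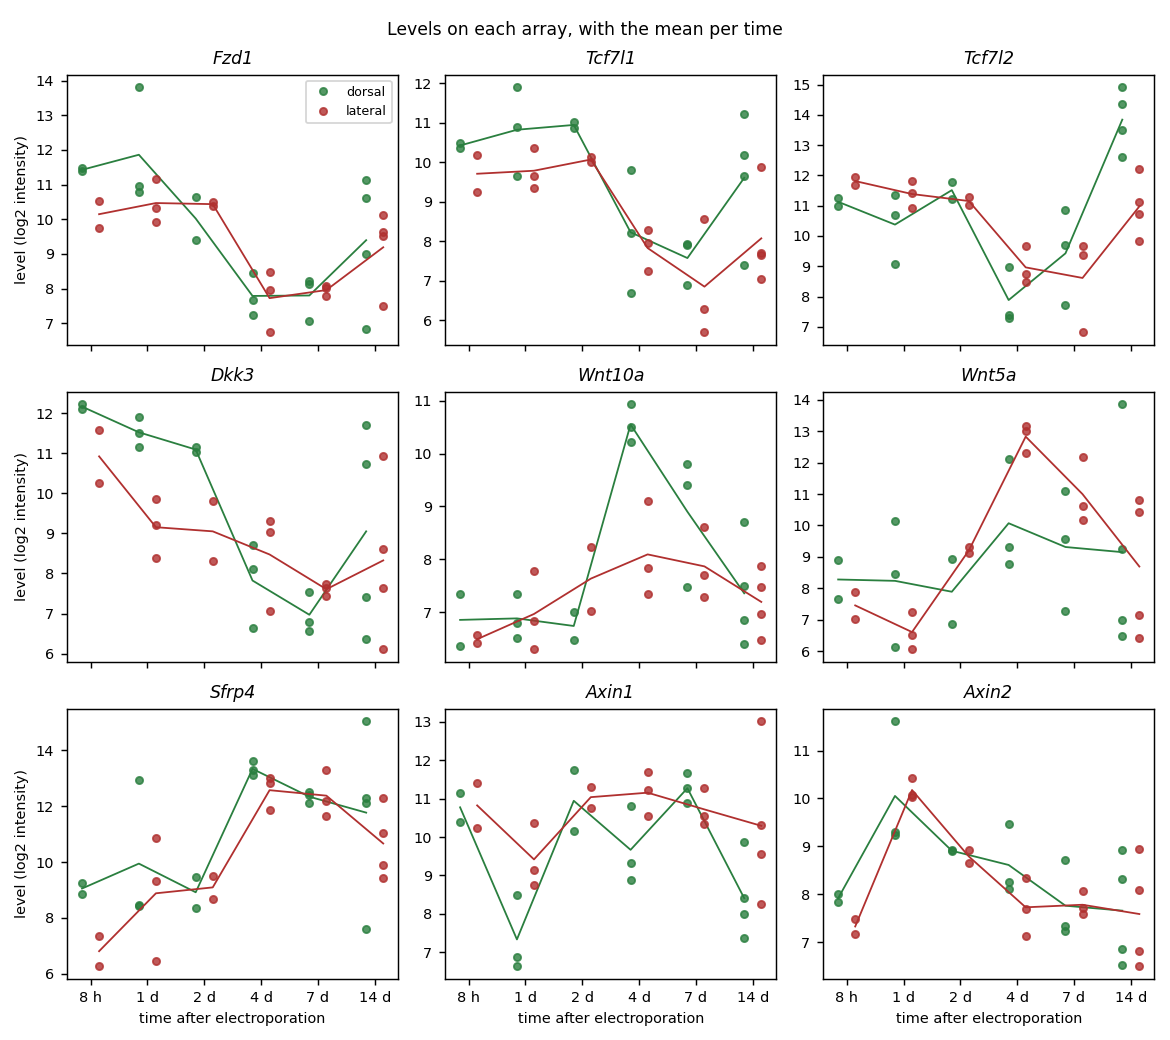
Log2 levels of 9 genes on each array at each time, dorsal in green and lateral in red, with lines through the means. Fzd1, Tcf7l1 and Dkk3 drop between 2 and 4 days, Wnt10a, Wnt5a and Sfrp4 are high at 4 days, and the 14 days arrays spread widely.

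Among the 18 ligands, 1 rose in each wall and none fell. Wnt10a, which signals through beta-catenin, lay between 6.37 and 7.34 on the early dorsal arrays and reached 10.50, 10.94 and 10.21 at 4 days. It then measured 9.81, 9.41 and 7.48 at 7 days and 8.70, 7.49, 6.85 and 6.39 at 14 days, so the rise was a peak at 4 days and the 14 days arrays overlapped the early ones. Wnt10a was well above background on 5 of 7 early and 7 of 10 late dorsal arrays, with 1 of 4 at 14 days. Part of its early and 14 days levels therefore lay near background. Its late minus early change in the dorsal channel was 2.11 ± 0.40 (adjusted p = 0.00783). In the lateral channel it was 0.69 ± 0.35 (adjusted p = 0.352), and the difference between those changes, 1.42 ± 0.57, did not pass the test (adjusted p = 0.358). At 4 days alone its dorsal minus lateral values were 3.16, 3.10 and 1.11, a mean of 2.45 ± 0.66 (adjusted p = 0.725). This probe is at chr1:74850633-74850692 (mm9).

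Wnt5a rose in the lateral channel. On the early lateral arrays it measured 7.02 and 7.89 at 8 hours, 6.06, 6.51 and 7.25 at 1 day, and 9.11 and 9.30 at 2 days. At 4 days it reached 13.18, 12.31 and 12.99, at 7 days 12.19, 10.62 and 10.18, and at 14 days it spread over 7.14, 6.41, 10.80 and 10.42. All 4 and 7 days arrays were above every early array, and those of 14 days were not. The late minus early change was 3.08 ± 0.61 (adjusted p = 0.00898) and, without the 14 days arrays, 4.15 (adjusted p = 2.49e-04). In the dorsal channel the change was 1.38 ± 1.06 (adjusted p = 0.591), with 1 array of 14 days at 13.87 and the others at 6.49, 9.25 and 6.99. Wnt5a has a second probe, above background on 7 arrays, whose lateral change was -0.17, so its probes disagree in direction, and their mean gave 1.45 (adjusted p = 0.0277). The representative probe is at chr14:29340427-29340486 (mm9, plus strand). Over the remaining ligands, the lateral changes reached down to -0.68 and the dorsal ones to -1.39, and none passed.

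Of the 12 Frizzled and LRP receptors, Fzd1 fell in both walls and no other member changed. Fzd1, a receptor for canonical ligands, measured 11.47 and 11.38 at 8 hours, 13.82, 10.79 and 10.97 at 1 day, and 9.39 and 10.65 at 2 days in the dorsal channel. It dropped to 7.67, 7.24 and 8.45 at 4 days and 8.12, 7.07 and 8.21 at 7 days, and at 14 days it measured 10.61, 9.01, 11.12 and 6.84. The lateral channel followed the same course, with 9.75 to 11.17 on the early arrays and 6.74 to 10.12 on the late ones. In both walls every 4 and 7 days array was below every early array, and some 14 days arrays were not. Fzd1 fell by 2.78 ± 0.62 on the log2 scale dorsally (adjusted p = 0.0206) and by 2.06 ± 0.38 laterally (adjusted p = 0.00575). Leaving out either 8 hours array, or replicate 2 of 2 days, ended the dorsal call (adjusted p up to 0.0812). The probe lies at chr5:4754003-4754062 (mm9, minus strand). Fzd9 had late minus early values of -1.23 ± 1.00 dorsally (adjusted p = 0.609) and -2.44 ± 0.93 laterally (adjusted p = 0.172).

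None of the 7 R-spondins and Lgr receptors changed. Lgr5, a stem cell receptor in several epithelia, had the largest change in the mean of both walls, 0.91 ± 0.37, from values of 1.18 ± 0.52 dorsally (adjusted p = 0.275) and 0.64 ± 0.42 laterally (adjusted p = 0.534). It stayed between 6.27 and 7.58 on the early dorsal arrays, where it was above background on 3 of 7. The late dorsal arrays were mostly as low, with a median of 7.08, but 7 days replicate 1 stood far above the rest and 7 days replicate 2 measured 8.66. Lgr4, the only gene of this class near the threshold for a wall difference, differed by 2.79 ± 0.62 at 1 day (adjusted p = 0.0529), and averaging its probes gave 0.80 (adjusted p = 0.387).

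The 8 secreted antagonists held the largest changes of the group, in opposite directions. Dkk3, a member of the Dickkopf family that does not act as a typical Wnt antagonist, fell in the dorsal channel. Its early dorsal arrays lay closely together, with 12.23 and 12.09 at 8 hours, 11.15, 11.51 and 11.90 at 1 day, and 11.02 and 11.16 at 2 days. It measured 8.72, 8.12 and 6.63 at 4 days and 6.57, 6.80 and 7.54 at 7 days, while at 14 days 11.71 and 10.72 on replicates 2 and 3 stood beside 7.41 and 6.36. Dkk3 was well above background on 7 of 7 early and 6 of 10 late dorsal arrays. The change was -3.64 ± 0.67 (adjusted p = 0.00707), and -1.58 ± 0.60 laterally, where it did not pass (adjusted p = 0.175). The difference between the walls' changes, -2.07 ± 0.94, did not pass either (adjusted p = 0.425).

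Sfrp4, a secreted Frizzled-related protein, rose in the lateral channel. It measured 6.27 and 7.35 at 8 hours, 9.34, 6.46 and 10.85 at 1 day, and 9.50 and 8.69 at 2 days. At 4 days it measured 12.85, 11.85 and 13.03, at 7 days 13.30, 11.64 and 12.20, and at 14 days 9.90, 9.44, 11.03 and 12.30. The 4 and 7 days arrays lay above all early ones, and the 14 days arrays overlapped them. The lateral change was 3.61 ± 0.60 (adjusted p = 0.00296). The dorsal change was 3.18 ± 0.91 (adjusted p = 0.0675) and did not pass, with medians of 8.86 early and 12.45 late. The call over the 6 times was lost without either 8 hours array (adjusted p up to 0.0561). Sfrp1 did not pass, with -1.99 ± 0.80 dorsally (adjusted p = 0.223) and -1.69 ± 0.56 laterally (adjusted p = 0.106).

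In the destruction complex, Axin1 and Axin2 changed over the 6 times, and neither passed the comparison of late with early arrays. Axin2, a target gene of canonical signalling and itself an inhibitor of it, measured 11.62, 9.23 and 9.31 dorsally and 10.04, 10.42 and 10.07 laterally at 1 day. At 8 hours it had been at 7.84 and 8.00 dorsally and at 7.18 and 7.48 laterally, and from 4 days on it lay between 6.50 and 9.46. Its time means spanned 2.49 (adjusted p = 0.0354), and the call held in 4 of 17 fits with 1 array missing (adjusted p up to 0.106). Its late minus early value was -1.06 ± 0.33 laterally (adjusted p = 0.0803). Axin1, the scaffold of the complex, was low at 1 day: its dorsal levels were 8.50, 6.86 and 6.63 at 1 day, after 10.39 and 11.16 at 8 hours and before 10.15 and 11.74 at 2 days. It was low again on the dorsal arrays of 14 days, at 8.00, 8.40, 9.86 and 7.36. Laterally the Axin1 means were 10.83 at 8 hours, 9.42 at 1 day, 11.04 at 2 days and 10.29 at 14 days. The lateral arrays of 14 days had a standard deviation of 2.02. Its time means spanned 2.62 (adjusted p = 0.00955). The times at which Axin1 and Axin2 stood out, 1 day and for Axin1 also 14 days, are those with a slide of their own. The fit with slide as a block holds only the other 4 times, so it leaves out those values and cannot separate slide from time. Over its 4 times neither passed (Axin1 0.65, adjusted p = 0.184, and Axin2 1.00, adjusted p = 0.238). Ctnnb1, which encodes beta-catenin, ranged from 13.52 to 16.12 dorsally and from 14.56 to 15.71 laterally over all arrays. Its late minus early change was -0.22 ± 0.22 dorsally (adjusted p = 0.689) and 0.15 ± 0.19 laterally (adjusted p = 0.811).

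Of the 4 TCF/LEF factors, Tcf7l1 fell in both walls and Tcf7l2 in the lateral one. Tcf7l1, which represses target genes in the absence of beta-catenin, lay between 9.66 and 11.91 on the early dorsal arrays and between 9.24 and 10.37 on the early lateral ones. At 4 days it measured 9.80, 8.21 and 6.68 dorsally and 7.25, 8.29 and 7.95 laterally, and at 7 days 7.93, 6.89 and 7.91 dorsally and 6.30, 8.56 and 5.70 laterally. The 14 days arrays were mixed, at 10.18, 7.39, 9.65 and 11.21 dorsally and 7.05, 7.71, 9.88 and 7.66 laterally. The change was -2.26 ± 0.57 dorsally (adjusted p = 0.0369) and -2.27 ± 0.47 laterally (adjusted p = 0.0113). The dorsal call was lost without any of 11 arrays left out in turn (adjusted p up to 0.11), and the lateral one without 8 hours replicate 1 (adjusted p = 0.0504). A second probe gave -1.76 dorsally and -0.80 laterally, and the mean over probes passed in neither wall (-2.01, adjusted p = 0.0814, and -1.53, adjusted p = 0.0897).

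Tcf7l2 traced a dip and a return. Laterally it lay between 10.93 and 11.96 on the early arrays, at 9.68, 8.73 and 8.48 at 4 days, at 6.82, 9.66 and 9.36 at 7 days, and at 10.73, 9.83, 12.22 and 11.13 at 14 days. Every lateral array of 4 and 7 days was below every early one. The lateral change was -1.94 ± 0.43 (adjusted p = 0.018), and it was lost without 8 hours replicate 1 or 2 days replicate 1 (adjusted p up to 0.062). Dorsally the same dip, to 8.96, 7.40 and 7.29 at 4 days, was followed at 14 days by the highest levels of the course. The late minus early value there was -0.62 ± 0.51 (adjusted p = 0.613) over the 3 late times. The other Tcf7l2 probe that was above background on 17 arrays gave -0.36 dorsally and -0.78 laterally, and the mean over probes was -0.94 laterally (adjusted p = 0.0809). Lef1, an activating factor, had values of 1.57 ± 0.91 dorsally (adjusted p = 0.447) and 0.67 ± 0.78 laterally (adjusted p = 0.793), with late lateral arrays from 7.18 to 13.02.

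**Figure D4:**
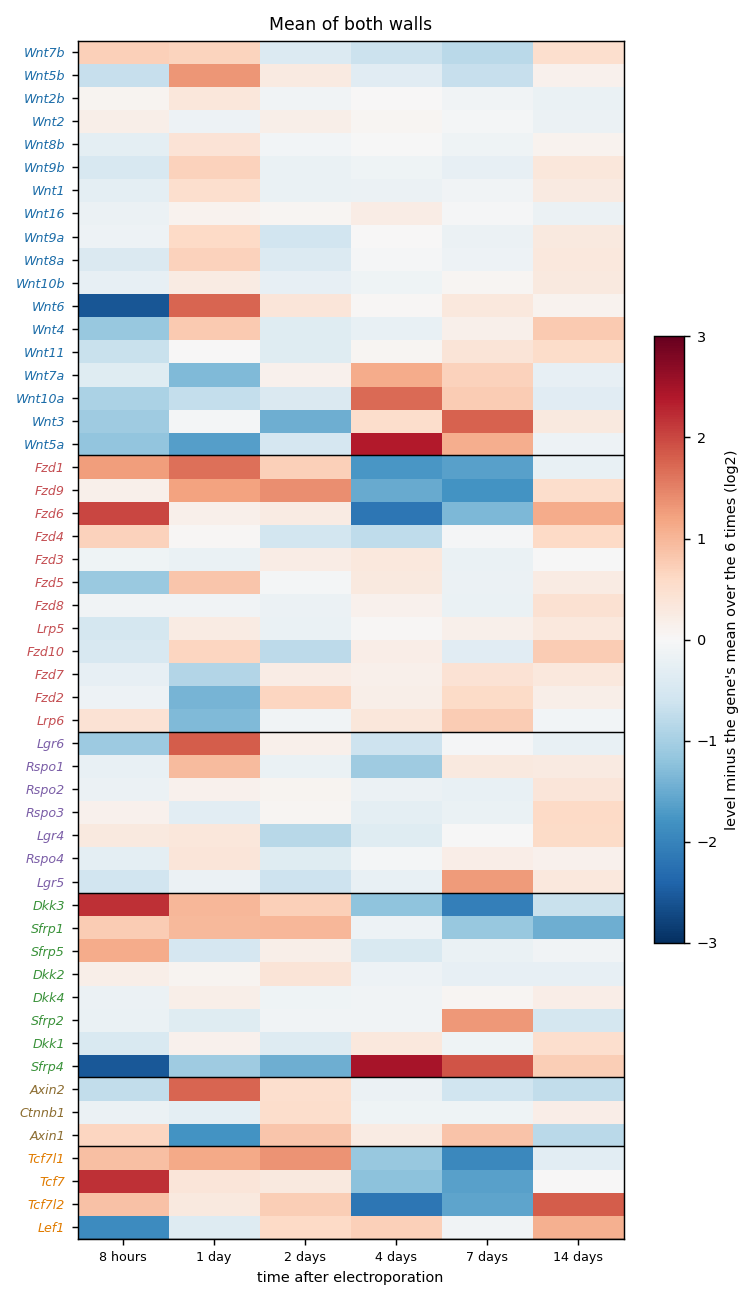
Mean log2 level of both walls at each time minus the gene's mean over the 6 times, for the 52 genes ordered by role and by late minus early change. Red is above and blue below the gene's own mean. Fzd1, Tcf7l1 and Dkk3 run from red to blue at 4 and 7 days, and Wnt5a, Wnt10a and Sfrp4 from blue to red.

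Within-slide values are given as a description, since the genes were chosen by the fit on these same arrays. For the 9 changes from early to late that passed, the 3 slides with both early and late arrays gave 27 within-slide values, and 27 had the sign of the fit. On slide 1, which held 8 hours, 4 days and 7 days arrays, the late minus early value was -5.08 for Dkk3 dorsally, -3.09 dorsally and -2.02 laterally for Fzd1, and -3.13 and -2.88 for Tcf7l1. Sfrp4 and Wnt5a were higher there, by 5.81 and 4.13 laterally. On the slides with 2 days, 4 days and 7 days arrays the smallest of the 18 values were -1.50 for Fzd1 dorsally on slide 3 and -1.57 for Tcf7l1 laterally on slide 4. With slide as a block, on the arrays of these slides and so without 1 day and 14 days, the 9 changes above passed. That fit is another contrast than the one over all 6 times.

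Some cell type markers changed over the same times. Of 8 radial glia and stem cell markers, 3 (Nes, Vim and Gfap) fell in both walls. The mean of the 5 that had a value on every array was 12.27 to 13.65 on the early dorsal arrays, 10.27 to 11.17 at 4 and 7 days, and 10.51 to 13.00 at 14 days. On the lateral arrays it was 11.85 to 12.92 early, 10.10 to 11.23 at 4 and 7 days, and 10.06 to 12.69 at 14 days. The other 5 markers did not pass, with Sox2 at 0.43 dorsally and -0.20 laterally, and Slc1a3 and Prom1 at -0.06 and -0.26 laterally. Of 4 ependymal markers, 3 fell in each wall, and of 5 astrocyte markers 3 fell dorsally and 0 laterally. Of 5 neuroblast markers, 4 (Dcx, Tubb3, Sox11 and Dlx5) rose in both walls, as did 3 of 5 mature neuron markers. The part of these markers' cell types in the changes of the 52 genes was not tested. Among markers of other tissues, 0 of 5 meningeal fibroblast and 0 of 6 endothelial markers changed in either wall.

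Of 70 further pathway genes, 69 were measured. Dorsally 15 of them changed, 6 up and 9 down, where 4.8% of all genes changed, and laterally 12, 7 up and 5 down, where 5.97% changed. Those that rose in both walls were Frzb, Apc, Csnk1e, Celsr3 and Tle2. Tle2, a Groucho co-repressor that binds TCF factors, rose by 5.11 ± 0.90 dorsally (adjusted p = 0.00643) and by 5.41 ± 0.43 laterally (adjusted p = 2.00e-05). Its late lateral arrays that held a value, from 13.06 to 15.67, lay above every early one, from 7.28 to 12.87. Outlier-flagged spots left Tle2 fewer arrays at 14 days, where the error of its wall difference was 1.13, the same as at 4 days. Frzb, a secreted Frizzled-related antagonist, rose by 3.67 ± 0.46 dorsally and by 2.43 ± 0.50 laterally. It was well above background on 11 of 17 dorsal and 9 of 17 lateral arrays. Outlier-flagged spots left Frzb fewer arrays at 14 days, where the error of its wall difference was 1.31, beside 0.76 at 4 days. Apc, a scaffold of the destruction complex, rose by 2.56 ± 0.67 dorsally (adjusted p = 0.0451) and by 2.99 ± 0.63 laterally (adjusted p = 0.0123). The early and late lateral arrays of Apc did not overlap. Its kinase partner Csnk1e rose by 1.69 ± 0.35 dorsally (adjusted p = 0.0137) and by 1.22 ± 0.25 laterally (adjusted p = 0.0107). Celsr3, an adhesion receptor of planar cell polarity in neurons, rose by 2.02 ± 0.46 dorsally (adjusted p = 0.0223) and by 3.34 ± 0.40 laterally (adjusted p = 3.34e-04).

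Tspan12, Ccnd1 and Cd44 fell in both walls. Cd44, an adhesion molecule and target gene, changed by -5.57 ± 0.72 dorsally (adjusted p = 7.79e-04), from 12.03 or more on every early array to 11.99 or less on every late one. Its lateral change was -3.57 ± 0.43 (adjusted p = 3.53e-04). Ccnd1, the cell cycle regulator cyclin D1, changed by -1.99 ± 0.44 dorsally (adjusted p = 0.0197) and -2.04 ± 0.48 laterally (adjusted p = 0.0226). Tspan12, which helps Norrin signal through Frizzled-4, changed by -2.41 ± 0.35 dorsally (adjusted p = 0.00172) and -2.22 ± 0.42 laterally (adjusted p = 0.00729). Between the walls, 3 of the 69 differed in the mean of the 6 times, where 2.38% of all genes did. Ndp, which encodes Norrin, was 1.64 ± 0.37 higher dorsally (adjusted p = 0.0386). Emx2, a transcription factor of dorsal telencephalic identity, was 0.73 ± 0.16 higher dorsally. Outlier-flagged spots left Emx2 fewer arrays at 8 hours, where the error of its wall difference was 0.57, beside 0.40 at 2 days. Apc was lower dorsally, at -0.51 ± 0.11 (adjusted p = 0.0362). Ndp also fell with time in the dorsal channel, by 2.91 ± 0.71 (adjusted p = 0.0317), where its lowest early array, 13.82, was above its highest late one, 13.32. Emx2 fell there too, by 2.74 ± 0.52, with the same loss of arrays at 8 hours.

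**Figure D5:**
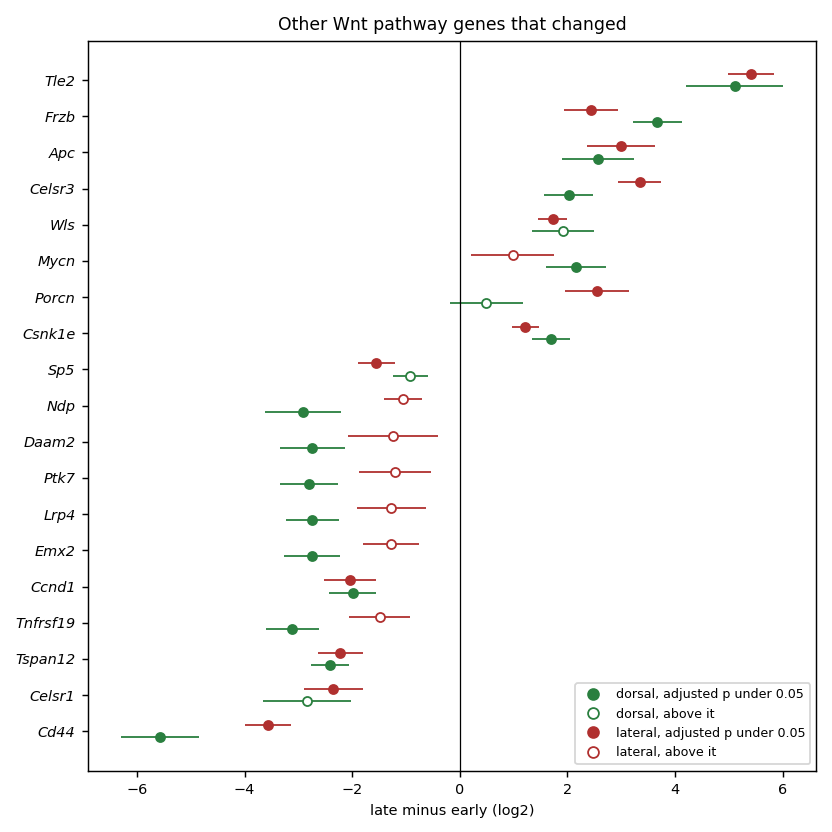
Late minus early log2 change with its standard error in the dorsal (green) and lateral (red) wall, for the further Wnt pathway genes that changed in at least 1 wall. Filled points passed the adjusted threshold and open points did not. Tle2 has the largest rise and Cd44 the largest fall in both walls among the genes shown.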

How the data were processed

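Dorsal (Cy3) and lateral (Cy5) cDNA shared each of 17 Agilent arrays of 1 mouse design. The deposited scanner files hold spot intensity values, made by the authors with Feature Extraction per the file headers. Their log10 ratio column, also deposited, served to read the direction of the authors' deposited value table, whose log2 values follow Cy3 over Cy5 and with a normalization that the sources used here do not state. Probe names and mm9 positions are those of the newer file headers. Spot intensities were corrected with normexp (offset 50), normalised by loess within arrays and Aquantile between arrays, without outlier-flagged spots, and averaged per probe in limma 3.58.1 (R 4.3.3). Probes well above background on 2 or more arrays were kept, and a gene is represented by its probe with the highest mean signal. limma's lmFit and eBayes fitted a mean per time over the 17 arrays, with Benjamini-Hochberg adjustment over all genes at 0.05. The p-values measure the spread between samples labelled biological replicates.

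Named are the genes that passed any test, the gene with the largest wall difference and the largest late minus early change in each role class, Ctnnb1, Axin2 and Lef1, and up to 10 further pathway genes that passed between the walls or in both walls with time. Tcf7l2 at 14 days, Lgr4, Sfrp1 and Fzd9 with time were added where their values bear on the text. The members and lists were chosen with earlier results of these data known. The fits were tested on simulated data. Alternatives covered background correction, normalization, the filter, probe choice, slide, software version, replicate number, array weights, the deposited table and single arrays. Of 36 pairs of same-numbered arrays of different times, 0 correlated above 0.1 in the wall difference. In the mean level 5 of 36 did, up to 0.32, with a median of 0.02 beside -0.01 in the 83 other pairs. The count above 0.1 in those other pairs is not given here. At 2, 4 and 7 days same-numbered arrays also shared a slide.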

Additional observations from a re-analysis of the deposited data

Results flagged for a closer look

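Over 17 named genes, 51 sets of 4 arrays at 14 days were examined for 1 array far from the other 3, and 2 were found, where chance gives about 1 in 20. Lgr6 measured 9.70 in the dorsal channel of 14 days replicate 3, with the other arrays between 8.29 and 8.52. Sfrp1 measured 7.88 in the lateral channel of 14 days replicate 2, with the other arrays between 11.74 and 12.52. That array also stood apart over all genes, and its dorsal Sfrp1 level was 7.86.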

How the results depend on the processing

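Direction was followed for the wall and late minus early results that passed, and for the largest mean wall difference of each role class. None of these reversed under any alternative run, and the other genes were not followed. Single probes did differ in direction. Of 25 other probes of the members, 15 had the sign of the representative probe in the mean wall difference. For late minus early, 17 had it dorsally and 11 laterally. The count of the 52 genes that differed between the walls in the mean of the 6 times (0) was 5 with median centring, 1 with quantile normalization, 1 with the mean over probes, 8 with slide as a random block, 4 with array weights (fits that stopped before their convergence tolerance) and 5 without both arrays that stand apart. At 8 hours (1) it was 0 with quantile normalization, the stricter filter, the software version term or the deposited value table, and 2 with slide as a random block or array weights. At 1 day (0) it was 2 with median centring, 1 with no filter, 6 with slide as a random block and 3 without both arrays. At 14 days (0) it was 3 with median centring and 2 with slide as a random block. Over the 6 times (8) it was 30 with slide as a random block, 39 with array weights and 13 without both arrays or without 14 days. Late minus early, dorsally (4) it was 1 with the scanner's processed signals, 14 with array weights and 8 with slide as a fixed block or without 14 days. Laterally (5) it was 11 with array weights or without both arrays, 14 with slide as a fixed block and 10 without 14 days. Leaving out 1 array gave 0 to 5 for the wall mean, 0 to 2 at 8 hours, 0 to 2 at 1 day, 0 to 1 at 14 days, 5 to 12 over the 6 times, 2 to 5 dorsally and 3 to 7 laterally. At 2, 4 and 7 days, arrays with the same replicate number shared a slide, so the replicate block partly follows slide. Within each other time all arrays lay on 1 slide. With the replicate block the counts were 0 at 8 hours, 1 at 14 days (Tcf7l2, adjusted p = 0.0472), 8 over the 6 times, 4 dorsally and 7 laterally. The fixed slide block and the fits without 14 days were chosen after seeing the data. With slide as a random block, the fitted correlation within slides was negative, at -0.17 for the wall difference and -0.24 for the mean of both walls. The standard error of the Tcf7l2 wall difference at 14 days was 0.50 in the main fit and 0.32 with that block. Larger counts with the random block are therefore not read as further differences. All these counts are given without the share of all genes in the same fit, so they describe the fits and are no result about the group. The causes were not tested. Members below background on many arrays limit what could be detected, with 24 of 52 above it on the poorest dorsal channel.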
